A study of Mus musculus with 4 samples.

Results

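The thioredoxin-interacting protein gene Txnip, its arrestin-domain relatives Arrdc3 and Arrdc4, the sestrin genes Sesn1, Sesn2 and Sesn3, and Ddit4 form a set of 7 metabolic regulators, described here in mouse embryonic stem cells given retinoic acid. Every probe whose platform symbol is 1 of the 7 was taken, which gave 12 of the 45281 probes on the array. The annotation used here names no probe for Arrdc3, so the 12 probes stand for 6 of the 19057 genes with a named probe. The cells were of the E14 line, grown in serum medium with LIF, and had been exposed for 2 hours to DMSO, the vehicle, or to ATRA (all-trans retinoic acid, the ligand of the retinoic acid receptors), with 2 arrays per group. The treatment label names DMSO for the control arrays, while the source label calls the same arrays untreated and their titles begin with wt, and no label used here states the dose of ATRA. The genes were selected on their function with earlier values of the comparison of ATRA with DMSO, probe by probe, already known, so their values in it are given as a description and not as a test. The labels do not say whether arrays of 1 group hold RNA of separate cultures, and the spread between them may be technical.

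Txnip, Arrdc3 and Arrdc4 belong to the alpha-arrestins, adaptor proteins that recruit NEDD4-family ubiquitin ligases to membrane proteins. Txnip also binds thioredoxin and promotes the uptake of glucose transporters from the cell surface, and its transcription follows glucose through the factors MondoA and ChREBP. Sestrins are stress-inducible proteins that restrain mTORC1, the kinase complex that couples nutrients to growth, by way of the GATOR complexes. Ddit4, also called REDD1, restrains the same kinase through the TSC complex and is known as a target of hypoxia and of several stress pathways.

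After 2 hours of ATRA, Txnip and Sesn1 were higher by each of their detected probes, by 1.32-fold to 1.45-fold. Both ATRA arrays lay above both DMSO arrays on each of these probes, as on 19.6% of all probes kept for the comparison. Arrdc4 and Ddit4 differed little in value, at 0.946-fold and 1.00-fold. The probes of Sesn2 pointed in opposite directions, and Sesn3 was near or below the detection limit. Of the 12 probes, 8 were kept for the comparison because they had a detection p under 0.05 on at least 2 of the 4 arrays, and these covered 5 genes. Changes are differences of mean log2 intensity after background correction, on a scale with an offset of 16, which understates the change of dim probes. In bulk RNA, a change in the share of cells that express a gene and a change in RNA per cell cannot be told apart.

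**Figure D1:**
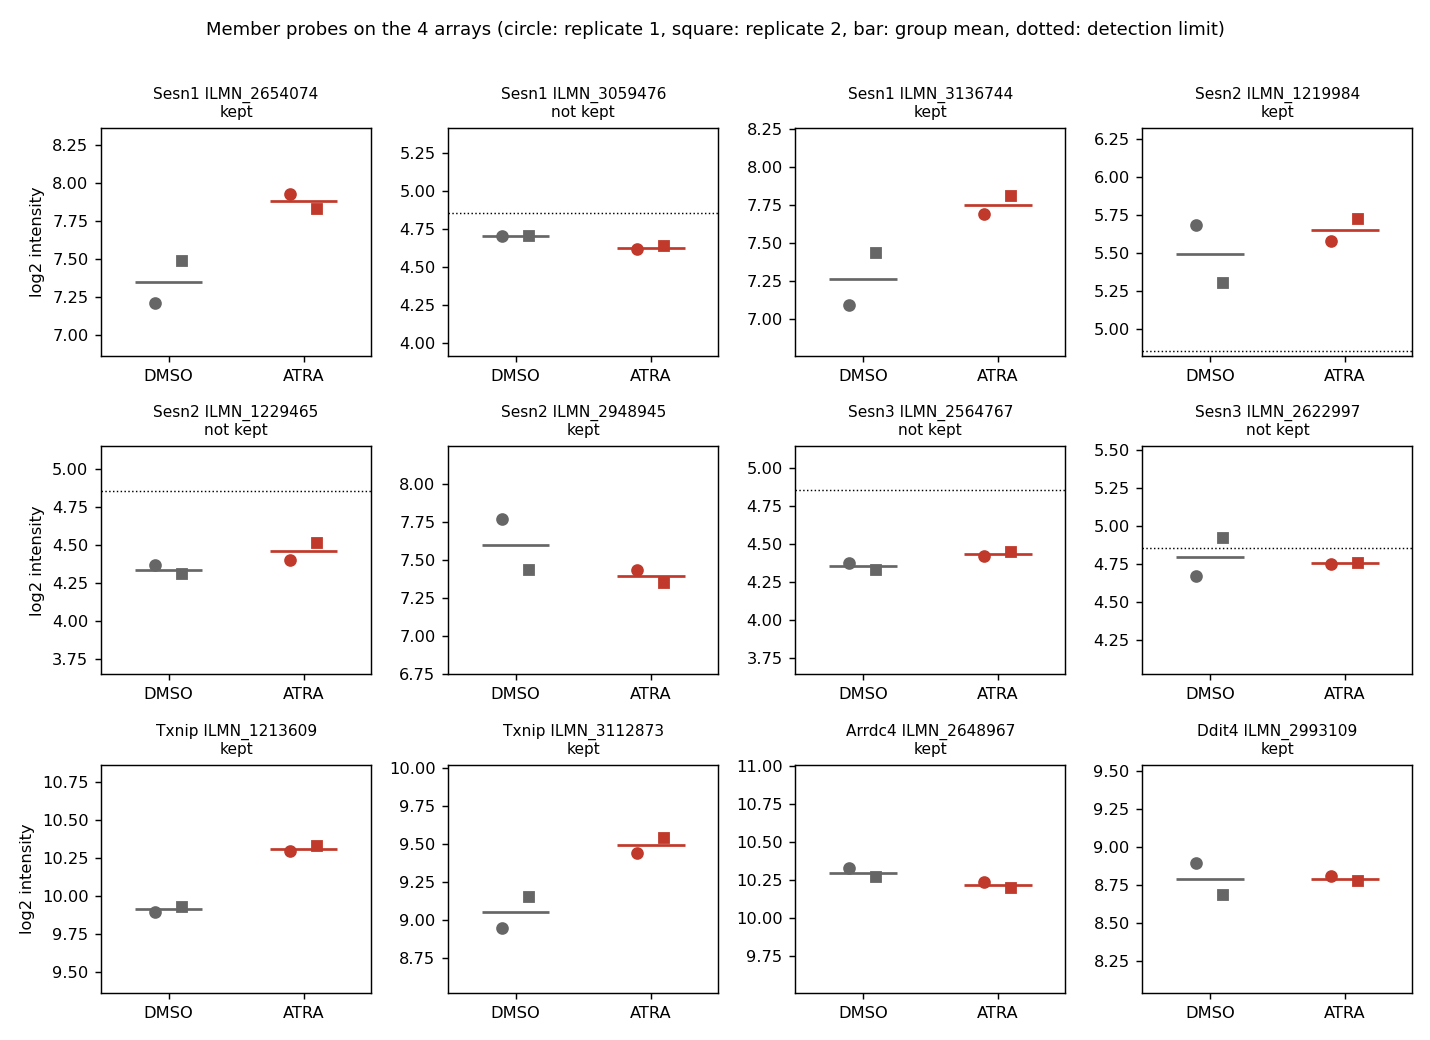
Each panel plots 1 of the 12 probes on the 4 arrays, with background-corrected log2 intensity on the vertical axis over the same span of 1.5 in every panel. Points are arrays, bars are means of 2 arrays, and the dotted line is the highest detection limit of the 4 arrays (4.86). Both ATRA arrays lie above both DMSO arrays in the kept panels of Sesn1 and Txnip, as on 19.6% of all kept probes.

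Txnip was read by 2 probes, which the annotation ties to different RefSeq transcripts of the gene. On probe ILMN_1213609 the deposited intensity was 1029.9 and 1053 with DMSO and 1335 and 1361 with ATRA. The groups did not overlap, as on 40.8% of all kept probes, and the replicates of each group lay close together. In log2 terms the mean went from 9.91 ± 0.02 to 10.31 ± 0.02 (SD, n = 2), a change of 0.40 (SE 0.08) or 1.32-fold. On probe ILMN_3112873 the intensity was 571 and 647 with DMSO and 774 and 822 with ATRA. Its log2 mean was 9.05 ± 0.15 with DMSO and 9.49 ± 0.07 with ATRA (SD, n = 2), a change of 0.44 (SE 0.09) or 1.36-fold. The probes thus gave nearly the same change, although the DMSO arrays lay further apart on the second. On the deposited intensities, with no background correction, the ATRA mean was 29.5% and 31.0% above the DMSO mean.

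The window around the annotated start of Txnip (250 bases before it and 50 from it on, RefSeq, GRCm38.p6, chr3:96557707-96558006, plus strand) is shown because Txnip and Sesn1 were higher together. Capitals mark matches to the forkhead heptamer GTAAACA and to the E-box CACGTG, or to the paired E-box-like motif, in which CACGNG recurs after a spacer of 5 bases. Each was searched on both strands.
Txnip: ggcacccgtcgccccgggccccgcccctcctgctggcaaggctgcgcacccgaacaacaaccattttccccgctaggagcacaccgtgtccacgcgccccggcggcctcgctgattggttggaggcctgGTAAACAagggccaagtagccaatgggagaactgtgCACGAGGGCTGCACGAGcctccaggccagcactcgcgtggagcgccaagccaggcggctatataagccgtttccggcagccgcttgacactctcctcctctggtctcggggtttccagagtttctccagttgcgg
The forkhead letters lie at bases -121 to -115 and the paired E-box-like letters at -85 to -69, counted with 0 at the first transcribed base. The heptamer GTAAACA is the core bound by forkhead factors such as the FOXO proteins, and paired E-boxes with a spacer of this length are the form known for carbohydrate response elements. The heptamer occurs in 3.65% of all 32851 RefSeq windows of this length and the pair in 0.0487% of them. The paired letters were chosen after this window had been read, so their presence here was fixed in advance. Nothing is read from their low share. A match of letters is a description and does not show binding.

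Arrdc4, the alpha-arrestin gene most like Txnip in its known response to glucose, was read by 1 probe, ILMN_2648967. Its intensity was 1360.4 and 1311 with DMSO and 1286 and 1249 with ATRA. Both ATRA arrays lay just below both DMSO arrays, as on 21.2% of all kept probes. The log2 mean was 10.30 ± 0.04 with DMSO and 10.22 ± 0.03 with ATRA (SD, n = 2), a change of -0.08 with a 95% interval of -0.25 to 0.09. The difference between the changes of Txnip and Arrdc4 was not tested. The Arrdc4 window (chr7:68749189-68749488, minus strand, written 5′ to 3′ along the gene) is printed beside that of its relative and holds 1 E-box, at bases -193 to -188, and no forkhead heptamer.
Arrdc4: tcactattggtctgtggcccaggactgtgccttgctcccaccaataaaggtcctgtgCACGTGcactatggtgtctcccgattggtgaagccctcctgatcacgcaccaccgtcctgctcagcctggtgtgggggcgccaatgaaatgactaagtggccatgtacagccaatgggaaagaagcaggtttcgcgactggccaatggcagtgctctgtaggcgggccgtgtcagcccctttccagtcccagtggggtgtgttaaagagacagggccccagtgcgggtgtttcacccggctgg
The E-box letters CACGTG occur in 7.15% of all windows. Arrdc3, known as an adaptor for adrenergic receptor and integrin turnover, has 3 windows in the RefSeq table, with neither motif in any of them, and no value here.

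Sesn1 was read by 3 probes that the annotation ties to the same transcript record, of which 2 were detected. On probe ILMN_2654074 the intensity was 226 and 257 with DMSO and 321 and 305 with ATRA. On probe ILMN_3136744 it was 214 and 251 with DMSO and 284 and 301 with ATRA. On both probes DMSO replicate 1 was the lowest array, DMSO replicate 2 came next, and the ATRA arrays were highest. The log2 mean of the first probe went from 7.35 ± 0.20 to 7.88 ± 0.07 (SD, n = 2), a change of 0.53 (SE 0.11) or 1.45-fold, the largest absolute change of the 8 kept probes. That of the second went from 7.27 ± 0.24 to 7.75 ± 0.08 (SD, n = 2), a change of 0.48 (SE 0.11) or 1.40-fold. The size of the change depends on which DMSO array it is set against, since without DMSO replicate 1 it was 0.39 and 0.31 and without DMSO replicate 2 it was 0.67 and 0.65. The remaining probe, ILMN_3059476, was undetected on all 4 arrays, with intensities of 103 and 103 with DMSO and 101 and 101 with ATRA, and bears on no change.

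Sesn1 has 2 annotated starts, and both windows are shown so that the places of the motifs can be set beside those of Txnip. They are chr10:41810324-41810623 and chr10:41887189-41887488, both on the plus strand of GRCm38.p6, with capitals as above.
Sesn1 first start: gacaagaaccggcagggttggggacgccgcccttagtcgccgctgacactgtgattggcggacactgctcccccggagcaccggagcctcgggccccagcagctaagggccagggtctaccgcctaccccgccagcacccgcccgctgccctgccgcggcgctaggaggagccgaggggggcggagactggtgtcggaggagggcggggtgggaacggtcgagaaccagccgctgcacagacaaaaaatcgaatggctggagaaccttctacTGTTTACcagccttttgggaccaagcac
Sesn1 second start: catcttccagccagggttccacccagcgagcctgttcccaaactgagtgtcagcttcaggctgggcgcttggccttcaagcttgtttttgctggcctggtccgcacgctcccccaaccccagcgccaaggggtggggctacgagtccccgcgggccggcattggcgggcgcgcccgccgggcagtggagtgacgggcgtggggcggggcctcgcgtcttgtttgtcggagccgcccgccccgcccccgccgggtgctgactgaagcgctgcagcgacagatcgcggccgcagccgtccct
The first window holds the forkhead letters on the opposite strand, at bases 22 to 28, just inside the transcript. The second holds neither a forkhead heptamer nor an E-box. Among the 10 windows of the 7 genes, those of Txnip and the first of Sesn1 were the 2 that held the heptamer. The heptamer was chosen with earlier results of these genes known, so nothing is read from this. Which start belongs to the transcript record of the Sesn1 probes was not examined. The retinoid receptor half-site AGGTCA, which is present in 16.3% of all windows, was in 0 of the 10, as were its direct repeats with spacers of 2 and of 5 bases, each in 0.00913% of all windows. The amino acid response letters tgatgcaa, known from targets of ATF4 and Ddit3, were in 0 of the 10 and in 0.895% of all windows. These letters are absent from windows of 300 bases, which says nothing of more distant sequence or of variant half-sites. The letters CCAAT, on either strand, were in 9 of the 10 windows against 37.4% of all windows. Of the 9, 2 are overlapping windows of Arrdc3 that share the same match. The 10 windows were rich in G and C, at 59.0% to 73.0% against a median of 52.7% over all windows. The motifs were chosen with earlier results known, and nothing is read from the CCAAT share.

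**Figure D2:**
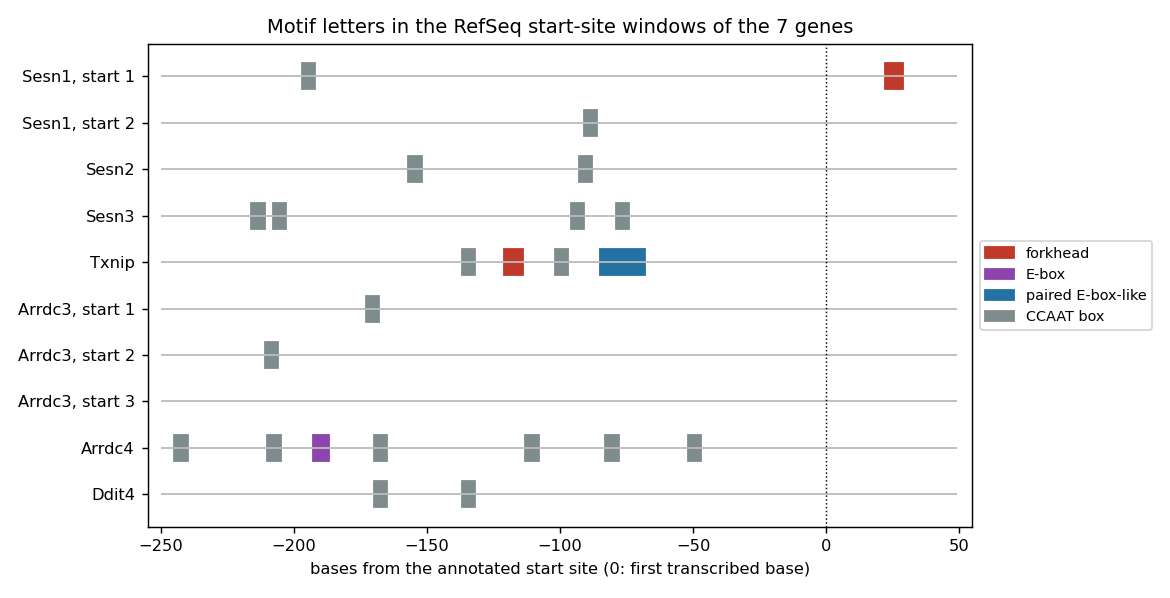
Each line is 1 of the 10 RefSeq start-site windows of the 7 genes, with the distance in bases from the annotated start on the horizontal axis and coloured boxes for matches to the motif letters on either strand. The forkhead boxes are in the Txnip window and the first Sesn1 window, and the paired E-box-like letters are in the Txnip window.

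Sesn2, the sestrin best known as a leucine-binding brake on mTORC1 in human cells and as a target of ATF4 and p53, was read by 3 probes that did not give 1 direction. On probe ILMN_2948945 the intensity was 296 and 251 with DMSO and 251 and 241 with ATRA. DMSO replicate 2 lay among the ATRA arrays, so the groups overlapped on the log2 scale. The change was -0.21 with a 95% interval of -0.44 to 0.02. On probe ILMN_1219984, nearer to the detection limit, the intensity was 129 and 117 with DMSO and 125 and 131 with ATRA. Here the groups overlapped again, and the change was 0.16 with an interval of -0.16 to 0.48. Without DMSO replicate 2 the changes of these probes were -0.38 and -0.03, and without DMSO replicate 1 they were -0.04 and 0.35, so 1 control array decides the size of the first and the direction of the second. The probe ILMN_1229465, annotated to a cDNA record, was undetected on all 4 arrays, with intensities of 90.1 to 98.1.

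Sesn3, known as a target of FOXO factors, was near or below the detection limit. On probe ILMN_2622997 the intensity was 102 and 108 with DMSO and 104 and 104 with ATRA, and it was detected on 1 of the 4 arrays, DMSO replicate 2. On probe ILMN_2564767 it was 91.2 to 95.9 and was detected on none. The detection limit of the arrays was an intensity of 104.4 to 106.3, so a change in Sesn3 was not detectable at this signal.

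Ddit4 was read by 1 probe, ILMN_2993109. The intensity was 554 and 490.2 with DMSO and 526 and 517 with ATRA. The ATRA arrays lay between the DMSO arrays. The log2 mean was 8.79 ± 0.15 with DMSO and 8.80 ± 0.02 with ATRA (SD, n = 2), a change of 0.003 with a 95% interval of -0.19 to 0.20, which spans folds of 0.876 to 1.15. Its sign turned with the control array left out, from 0.11 without DMSO replicate 1 to -0.10 without DMSO replicate 2.

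**Figure D3:**
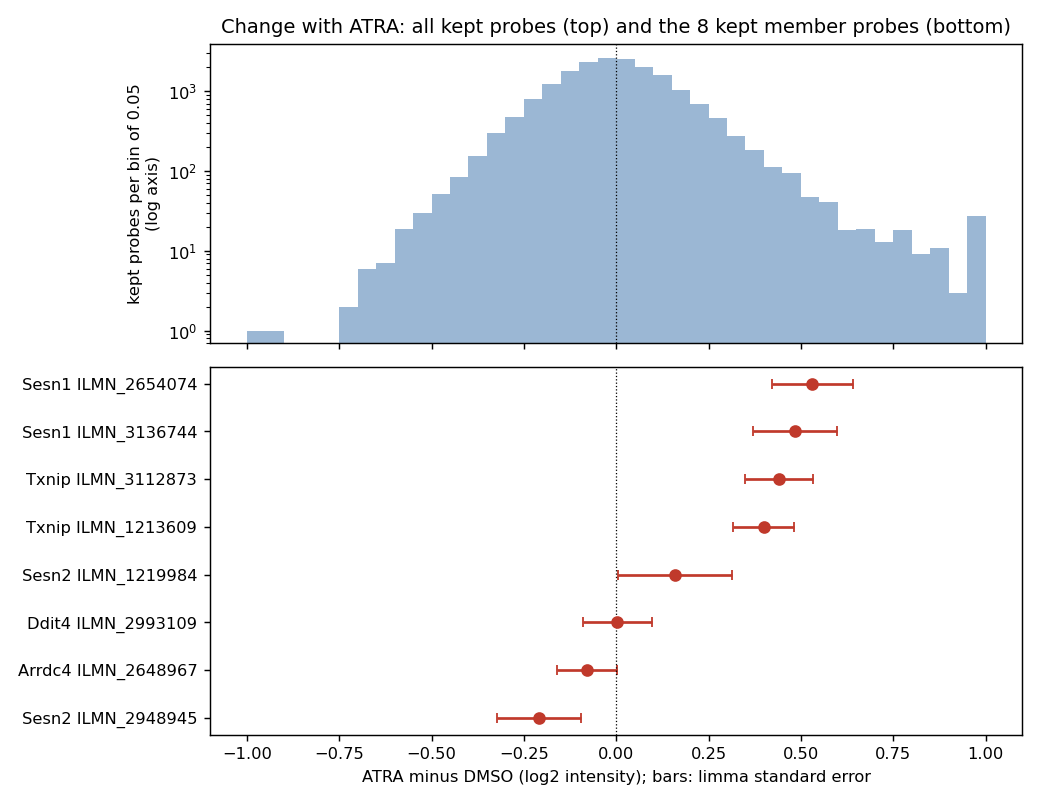
The top panel counts the 19112 kept probes by their change with ATRA on the log2 scale, with a logarithmic count axis and changes beyond 1 gathered in the outermost bins. The bottom panel gives the change of the 8 kept probes of the set with limma's standard error. The probes of Sesn1 and Txnip lie between 0.40 and 0.53, and the other 4 probes lie between -0.21 and 0.16.

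Read against all kept probes, 0.910% had a larger rise than Sesn1 probe ILMN_2654074 and 1.19% a larger rise than ILMN_3136744. For the Txnip probes these shares were 1.62% for ILMN_3112873 and 2.18% for ILMN_1213609. The absolute change of Ddit4 was exceeded by 98.0% of kept probes. The median change of the 8 kept probes was 0.28 and that of all kept probes was -0.007. By the probe of each gene with the highest mean, the median of the 5 genes was 0.003 against -0.004 for all genes, since the middle gene is then Ddit4. In limma's fit over all kept probes with Benjamini-Hochberg adjustment at 0.05, 4 of the 8 kept probes were called higher (those of Sesn1 and Txnip) and 0 lower, where 1.26% of kept probes were called higher, 0.324% lower and 1.58% in either direction. Groups did not overlap on 5 of the 8 probes, the 4 just named and Arrdc4, as on 40.8% of all kept probes (19.6% higher and 21.2% lower). Because the genes were proposed with this contrast in view, nothing is read from these counts. The calls also rested on the variance model and on single arrays: eBayes run without the intensity trend called 0 of the 8, although 74 probes of all were called. Leaving out ATRA replicate 1 left 1 called (Txnip ILMN_3112873), and leaving out ATRA replicate 2 left 1 (Sesn1 ILMN_2654074).

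Probes of the same gene were set against each other to see how alike their changes were. Over the 3952 genes with at least 2 kept probes, the changes of the 2 probes with the highest means differed by a median of 0.11 on the log2 scale. The pairs of Txnip and Sesn1 differed by 0.04 and 0.05, less than in 79.1% and 76.0% of these genes. The pair of Sesn2 differed by 0.37, and 5.59% of genes had a larger gap. Probes of 1 gene share the RNA of the array, so their likeness is no replication of the comparison.

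**Figure D4:**
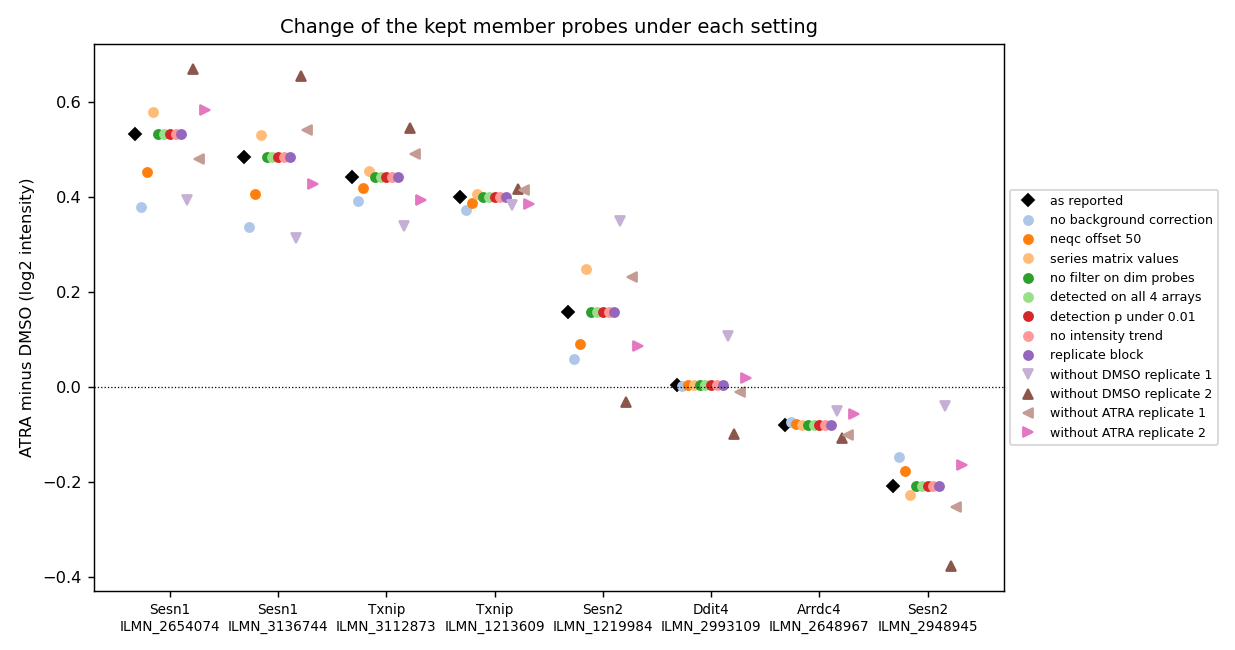
The change of each kept probe with ATRA (log2 intensity, vertical axis) is drawn under the reported setting and the 12 alternatives, 1 marker per setting. The Sesn1 and Txnip probes stay above 0.3 in all of them, while Ddit4 and the Sesn2 probe ILMN_1219984 lie on both sides of 0.

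Genes linked to these regulators were compared next, in 11 lists written from the known biology with earlier results of these data known. The lists hold partners and complexes of the regulators, factors that act on their genes, and other targets of such factors. A gene was represented by its kept probe with the highest mean. Of 150 listed genes, 140 had a named probe and 119 were kept, of which 4 rose and 1 fell, where 1.46% of all 10194 measured genes were called higher, 0.363% lower and 1.82% in either direction. The median change over the listed genes was -0.04. Since earlier results were known when the lists were written, nothing is read from these counts.

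Partners of the arrestin-domain proteins gave 0 calls. Of the 3 kept relatives, Arrdc2, another alpha-arrestin, was at 0.07 and the beta-arrestin Arrb2 at -0.08 (limma adjusted p = 0.90 and 0.85). The sign of Arrdc2 turned without DMSO replicate 2 (-0.08) and that of Arrb2 without DMSO replicate 1 (0.04). Of 8 kept NEDD4-family ligases and adaptors, 0 passed. The ligase Wwp2 was at -0.21 and the adaptor Ndfip2 at 0.24 (limma adjusted p = 0.37 and 0.50), and the 2 other probes of Wwp2 were at -0.03 and 0.03. Of 10 kept genes of the thioredoxin and peroxiredoxin system, which holds the binding partner of Txnip, 0 passed. Srxn1, which restores oxidised peroxiredoxins, was at 0.29 and the mitochondrial thioredoxin Txn2 at -0.16 (limma adjusted p = 0.18 and 0.55), and Srxn1 passed without DMSO replicate 1 (0.38, limma adjusted p = 0.022). The other probes of Srxn1 were at -0.06 and 0.24, and that of Txn2 was at 0.10.

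The MondoA and ChREBP network, which controls Txnip and Arrdc4 in response to glucose, had 9 kept genes and 0 calls. Mnt and Max, which belong to the same family of dimerising factors, were at 0.27 and 0.26 (limma adjusted p = 0.55 and 0.54). With 1 array left out, Mnt ranged from 0.15 to 0.39 and Max from 0.10 to 0.42, without passing. Of 8 kept genes of glucose uptake and early glycolysis, 0 passed. The phosphofructokinase gene Pfkp was at -0.29 (limma adjusted p = 0.090), with its other probe at -0.01, and the glucose transporter gene Slc2a1, whose product Txnip helps to remove from the surface, was at 0.13 (limma adjusted p = 0.55). Pfkp passed without DMSO replicate 2 and with the replicate number as a block (limma adjusted p = 0.020 and 0.036).

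The complexes on which sestrins and Ddit4 act also gave 0 calls by these probes. Among 18 kept genes of the GATOR and Rag complexes, the GTPase gene Rragd and the GATOR2 subunit gene Wdr24 were both at -0.28 (limma adjusted p = 0.26 and 0.31). Among 19 kept genes of mTORC1, TSC and AMPK, the AMPK subunit genes Prkaa2 and Prkab2 were at -0.42 and 0.26 (limma adjusted p = 0.20 and 0.56). By any kept probe the last list had 1 call, for a probe of Tsc2, the GTPase activator that Ddit4 works through. That probe was at 0.67 (limma adjusted p = 0.041), while the other 2 probes of Tsc2 were at -0.04 and -0.09 without passing. Tsc2 is named because of that call, after its values were seen.

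Of 8 kept transcription factors known to act on the sestrin genes and Ddit4, Ddit3 rose. This factor of the integrated stress response, also called CHOP, went from 6.95 ± 0.03 to 7.55 ± 0.15 (SD, n = 2), a change of 0.60 (1.51-fold, SE 0.11, limma adjusted p = 0.0027), and its other probe was at 0.61 and also passed. Foxo1, a forkhead factor, was at -0.32 (limma adjusted p = 0.14). Trp73, a p53 relative, was detected with DMSO (2 of 2 arrays) but with ATRA on 0 arrays, and did not pass (limma adjusted p = 0.49).

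Target genes of the same factors were taken as 3 lists. Of 12 kept p53 targets, Ei24 rose by 0.39 (1.31-fold, SE 0.08, limma adjusted p = 0.0093). It encodes a membrane protein of the endoplasmic reticulum, and its other probe was at 0.26 without passing. Pmaip1, also called Noxa, was at 0.46 and Zmat3 at -0.16 (limma adjusted p = 0.24 and 0.48), and the list's median change was -0.03. The value of Pmaip1 turned on 1 control array, being 0.22 without DMSO replicate 1 and 0.69 without DMSO replicate 2, where it passed (limma adjusted p = 0.013). Of 10 kept hypoxia targets, Vegfa, the vascular growth factor gene, rose by 0.81 (1.76-fold, SE 0.11, limma adjusted p = 7.3e-05). Its other probe was at 0.44 without passing. Ndrg1 and Pdk1 were at -0.28 and -0.18 (limma adjusted p = 0.34 and 0.48), and the list's median was -0.04. Of 14 kept FOXO targets, Bcl2l11, a BH3-only death gene also called Bim, rose by 0.51 (1.42-fold, SE 0.11, limma adjusted p = 0.0083). Its other probes were at 0.43 and 0.14 without passing. Cited2, a transcriptional co-regulator, fell by 0.34 (SE 0.09, limma adjusted p = 0.046), and its other probes were at -0.58, which passed, and at -0.37, which did not. The median of the FOXO list was -0.06, and 9 of its 14 genes were lower in value.

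Vegfa passed with any array left out and without the intensity trend (limma adjusted p = 0.022). Without the trend Ddit3, Ei24, Bcl2l11 and Cited2 missed the threshold (limma adjusted p = 0.096, 0.19, 0.12 and 0.29). Without ATRA replicate 1 Ddit3, Ei24 and Cited2 missed it (limma adjusted p = 0.16, 0.16 and 0.64), and without ATRA replicate 2 Ei24, Bcl2l11 and Cited2 missed it (limma adjusted p = 0.14, 0.23 and 0.15).

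**Figure D5:**
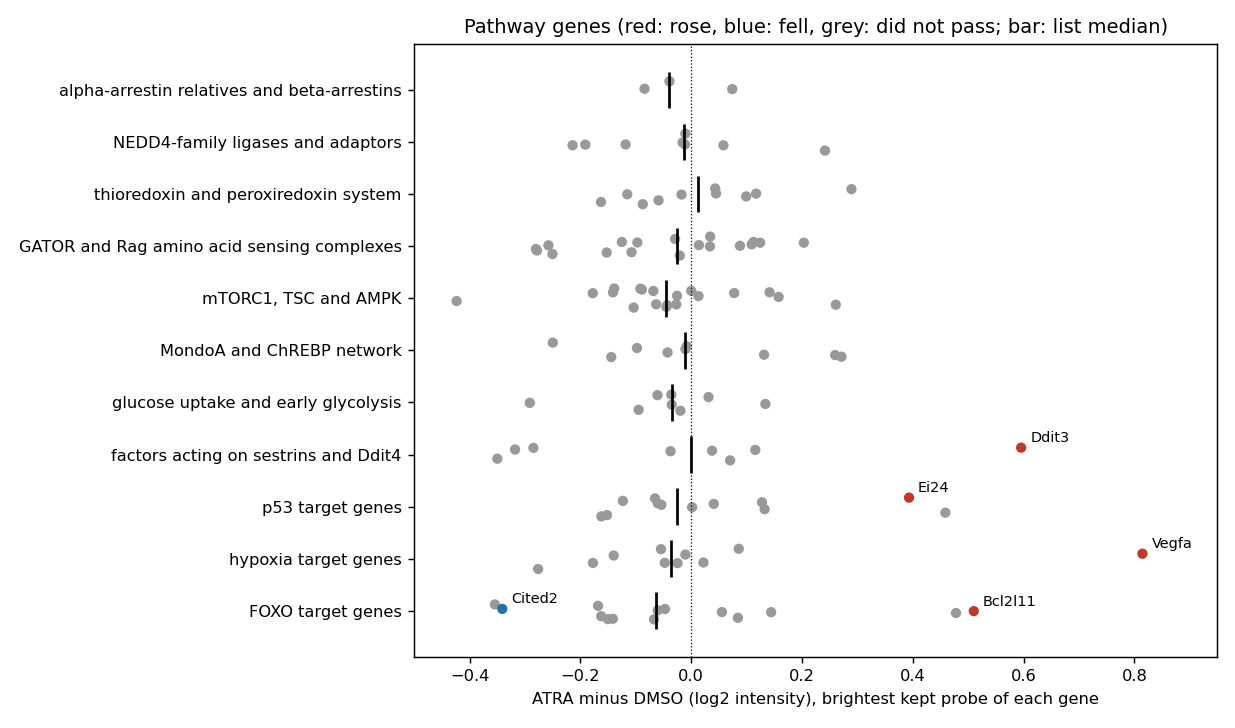
Each point is the change with ATRA (log2 intensity, horizontal axis) of 1 kept gene of the 11 lists, with list medians as bars. Red points rose, the blue point fell, and grey points did not pass; the 5 called genes are named, and all list medians lie between -0.06 and 0.01.

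The profile over the 4 arrays most like that of Sesn1 probe ILMN_2654074 was sought by Euclidean distance between log2 profiles centred on each probe's own mean. The nearest named probes outside the set were those of the forkhead factor gene Foxp1 (distance 0.05, change 0.56), the orphan receptor gene Esrra (0.08, change 0.53) and the tectonic gene Tctn1. The Tctn1 probe was undetected on both DMSO arrays and did not pass (limma adjusted p = 0.17), so its distance and change are set against background and are not given. Within the set, the other Sesn1 probe and the Txnip probe ILMN_3112873 lay at 0.17, and 0.330% and 0.377% of kept probes were nearer. The other Txnip probe, ILMN_1213609, lay at 0.24, and 1.17% were nearer. Ddit4 lay at 0.63, and 56.8% were nearer. For Arrdc4 the distance was 0.66 (63.8% nearer), and for Sesn2 it was 0.62 on ILMN_1219984 (54.2% nearer) and 0.86 on ILMN_2948945 (94.3% nearer). Likeness over 4 arrays in 2 groups says little beyond a like size of change.

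The share of all probes detected was 40.1% to 42.3% on the 4 arrays, and Cyp26a1, a retinoic acid hydroxylase gene that serves as the check of the treatment, was 3.97-fold higher with ATRA. Its DMSO mean of 4.92 ± 0.20 (SD, n = 2) lay near the detection limits of the DMSO arrays (4.77 and 4.81). The size of this fold therefore depends on the offset. All 10 pluripotent cell markers were detected on all 4 arrays, with a median change of 0.03. Zfp42 and Sox2 fell, and the other 8 did not pass, among them Nanog at 0.20 and Esrrb at -0.15. Of 9 fibroblast feeder markers, Col1a2, Dcn, Lum and Postn were detected on 0 arrays. Acta2, Col1a1, Col3a1, Fbln1 and Thy1 were detected on all 4 arrays and did not pass. Their median change was -0.04, with Fbln1 at 0.34 (limma adjusted p = 0.057). The summed background-corrected intensity of the kept feeder probes was 7777 to 8459 with DMSO and 7805 to 7847 with ATRA. Of 7 endoderm markers, Afp, Foxa2 and Sox17 were detected on 0 arrays, Gata4 was not kept, and Dab2 and Sox7 were at -0.27 and 0.12 without passing. Gata6 was called higher, but its DMSO mean of 4.75 lay below the lowest detected log2 values of the DMSO arrays (4.77 and 4.81). Its rise is thus set against background. The part of these marker changes in the values above was not tested.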

How the data were processed

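The authors deposited a table of linear intensity values. Each has a detection p-value in the next column, per the file headers. GenomeStudio is named in the submitters' processing notes, with its version and any further step not given in the sources used here. The table is named non-normalized, but its sorted values differed between arrays by at most 0.228. It was therefore quantile normalized before deposit, and a change shared by most transcripts would not be seen. The deposited series matrix holds the same intensity values less a constant of 93.5.

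From the intensities, limma 3.58.1 in R 4.3.3 applied neqc (normexp, negative controls inferred from detection p, offset 16, quantile normalization, log2). Probes with detection p under 0.05 on at least 2 of 4 arrays were kept (19112 of 45281). The groups were compared with lmFit and trended eBayes, with Benjamini-Hochberg adjustment over all kept probes at 0.05; adjusted p-values are from this limma fit unless a sentence names another setting, whose refit they then come from. Intervals are 95% intervals of that fit. The number of arrays limits the precision, and an exact two-sided permutation test of 2 against 2 arrays cannot go below 0.333, so none was used. On simulated data for this comparison with 19112 probes, 47 of 100 probes changed by 0.5 and 96 of 100 changed by 1 on the log2 scale were recovered, with 4 false calls among 147. The simulated noise was independent and drawn from the fitted variance model itself. These counts therefore hold only where that model does, and they do not check it.

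Probe symbols came from the platform annotation (34885 probes with 1 symbol, 18 with several, 10378 unnamed here), and 34807 matched a RefSeq gene by Entrez identifier with 0 renamed. The files name no genome build; coordinates belong to the RefSeq windows of GRCm38.p6, matched by symbol for 7 of 7 genes. The genes, lists and motifs were chosen with earlier results of these data known, and the paired E-box-like letters after the Txnip window had been read. Named are all genes of the set, in each list the called genes and, with fewer than 2 calls, the 2 largest changes, and the 3 nearest profiles.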

Additional observations from a re-analysis of the deposited data

How the results depend on the processing

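The changes of the Sesn1 and Txnip probes kept their direction under each alternative run (no background correction, an offset of 50, the series matrix values, no filter or stricter filters on dim probes, no intensity trend, the replicate block, and each array left out). Without background correction the change of Sesn1 ILMN_2654074 was 0.38 and that of Txnip ILMN_1213609 was 0.37. Without the intensity trend, 74 probes in all and 0 of the set passed, and the lists of p53 targets, FOXO targets and transcription factors had 0, 0 and 0 calls. FOXO targets had 1 call with no background correction, the series matrix values, no filter, or detection p under 0.01, where Cited2 missed. By any kept probe the mTORC1 list had 1 call.

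With 1 array left out, the lone sample of its group is assumed to vary like the other group. The probes past the threshold then numbered 133 to 956 in all and 1 to 5 in the set, where Sesn2 ILMN_2948945 was the fifth, lower, without DMSO replicate 2. Calls ranged from 0 to 1 for thioredoxin genes, 0 to 1 for glucose uptake, 0 to 1 for transcription factors, 0 to 2 for p53 targets, 1 to 2 for hypoxia targets and 0 to 3 for FOXO targets.

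The groups share replicate numbers, but nothing says that a number marks a shared batch, and deviations of same-numbered arrays correlated across kept probes with r = -0.003. With the replicate block 492 probes passed, with 4 FOXO targets and 1 glucose uptake gene, and the same 4 probes of Sesn1 and Txnip. Higher calls were 79.5% of all calls, and 94.6%, 68.9% and 61.9% without the trend, with the block and without DMSO replicate 2. Signal near background limits what can be said of Sesn3 and of 1 probe each of Sesn1 and Sesn2. It also makes the size of change of dim list genes depend on the background step. Prkaa2 was at -0.16 without background correction and at -0.64 with the series matrix values, and Pmaip1 was at 0.15 and 0.86.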
